A study of Mus musculus with 2 samples.

Results

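Genes subject to genomic imprinting were described in fetal mouse liver: 44 genes named by their symbols, out of 43346 annotated genes in the deposited tables. The symbols came from a fixed list and were not picked by level, though the list was chosen with earlier results of these data known. Each of the 44 matched exactly 1 gene ID by its GENCODE name. The samples were whole livers of B6NCrl embryos, pooled from males and females at embryonic day 13.5, with no mutation or treatment named. There were 2 biological replicates, and both made up a single group, so no test between conditions was possible and each level is given per library or as mean ± SD (n = 2). RNA longer than 200 nt was taken (10 ng per library, with ERCC spike-in RNAs added), which gave 39182448 and 37432953 expected counts in annotated genes for replicates 1 and 2. The labels record the replicates as separate biological samples that share a donor entry, so the spread between them may be in part technical.

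Imprinted genes carry a mark of DNA methylation set in the egg or the sperm, and as a result they are transcribed mainly or only from the copy inherited from a given parent. They lie in clusters in which a methylated control region, and often a long noncoding RNA, sets the activity of neighbouring genes on the same chromosome. Many act on fetal growth, paternally expressed members often promoting it and maternally expressed members often limiting it. The embryos were of an inbred strain, so reads from the maternal and paternal copies could not be told apart here. The parental allele given for each gene below is textbook background for mouse, and the imprint of some members (14 of 44 in the list, among them Ube3a, Dcn, Commd1, Copg2 and H13) is known only in certain tissues, stages or transcripts.

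The promoters of Grb10, Mest, Gnas and Peg3 are shown because the transcript results below turn on which start site of these genes was in use. Each is 300 bases around a start site from RefSeq (GRCm38.p6), written 5′ to 3′ on the gene's strand, with CpG dinucleotides, the bases that carry DNA methylation, in capitals.
Grb10, upstream start, chr11:12037371-12037670, minus strand: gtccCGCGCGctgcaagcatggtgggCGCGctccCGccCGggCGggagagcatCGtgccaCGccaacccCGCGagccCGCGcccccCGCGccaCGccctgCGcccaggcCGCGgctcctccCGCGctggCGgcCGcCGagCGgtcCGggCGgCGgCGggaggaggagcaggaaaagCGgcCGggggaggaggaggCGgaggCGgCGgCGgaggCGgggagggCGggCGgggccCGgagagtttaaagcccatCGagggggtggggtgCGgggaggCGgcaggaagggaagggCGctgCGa
Grb10, downstream start, chr11:12027922-12028221, minus strand: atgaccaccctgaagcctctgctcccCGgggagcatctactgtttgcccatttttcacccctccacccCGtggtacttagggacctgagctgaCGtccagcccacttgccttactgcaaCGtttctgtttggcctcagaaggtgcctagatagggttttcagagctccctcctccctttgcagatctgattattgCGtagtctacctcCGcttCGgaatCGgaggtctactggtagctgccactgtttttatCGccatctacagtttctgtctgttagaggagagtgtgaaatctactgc
Mest, upstream start, chr6:30733256-30733555, plus strand: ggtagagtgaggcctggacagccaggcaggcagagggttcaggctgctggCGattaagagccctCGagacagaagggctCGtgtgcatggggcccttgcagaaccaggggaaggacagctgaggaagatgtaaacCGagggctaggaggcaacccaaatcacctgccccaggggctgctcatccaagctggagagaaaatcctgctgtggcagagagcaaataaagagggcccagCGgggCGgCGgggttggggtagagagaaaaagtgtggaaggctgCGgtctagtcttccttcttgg
Mest, main start, chr6:30737800-30738099, plus strand: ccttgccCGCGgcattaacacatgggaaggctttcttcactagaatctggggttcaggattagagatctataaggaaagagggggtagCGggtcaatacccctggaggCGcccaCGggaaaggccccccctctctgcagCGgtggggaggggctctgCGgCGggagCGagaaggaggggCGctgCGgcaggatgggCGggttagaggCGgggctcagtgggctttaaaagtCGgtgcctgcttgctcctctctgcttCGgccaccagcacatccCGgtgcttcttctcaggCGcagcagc
Gnas, Nesp start, chr2:174284070-174284369, plus strand: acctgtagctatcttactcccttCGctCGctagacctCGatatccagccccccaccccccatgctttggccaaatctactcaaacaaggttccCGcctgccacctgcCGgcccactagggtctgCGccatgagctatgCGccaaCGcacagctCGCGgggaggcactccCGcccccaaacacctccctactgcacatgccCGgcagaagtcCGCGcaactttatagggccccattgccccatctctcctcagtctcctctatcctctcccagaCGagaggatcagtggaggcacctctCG
Gnas, exon 1A start, chr2:174327499-174327798, plus strand: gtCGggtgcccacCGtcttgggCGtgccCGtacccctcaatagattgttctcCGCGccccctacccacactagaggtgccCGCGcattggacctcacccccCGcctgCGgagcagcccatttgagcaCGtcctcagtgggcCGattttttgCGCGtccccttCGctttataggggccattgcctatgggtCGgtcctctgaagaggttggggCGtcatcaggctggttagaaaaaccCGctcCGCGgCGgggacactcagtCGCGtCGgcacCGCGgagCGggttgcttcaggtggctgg
Gnas, Gs alpha start, chr2:174329756-174330055, plus strand: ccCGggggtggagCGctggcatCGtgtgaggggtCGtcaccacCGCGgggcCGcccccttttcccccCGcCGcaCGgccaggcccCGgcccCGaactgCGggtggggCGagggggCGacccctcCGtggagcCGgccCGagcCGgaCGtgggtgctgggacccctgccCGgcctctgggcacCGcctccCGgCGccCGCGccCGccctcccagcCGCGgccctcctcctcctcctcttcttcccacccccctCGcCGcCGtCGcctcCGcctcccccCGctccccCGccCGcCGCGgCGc
Peg3, overlapping a RefSeq start of Usp29 on the plus strand, chr7:6730370-6730669, minus strand: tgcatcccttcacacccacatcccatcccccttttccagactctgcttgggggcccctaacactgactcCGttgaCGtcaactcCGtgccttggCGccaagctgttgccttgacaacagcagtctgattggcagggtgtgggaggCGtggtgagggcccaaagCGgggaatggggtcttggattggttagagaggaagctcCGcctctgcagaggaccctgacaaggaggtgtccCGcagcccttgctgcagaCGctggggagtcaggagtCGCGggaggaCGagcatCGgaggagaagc

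The upstream Grb10 promoter held 45 CpG dinucleotides and the Gs alpha promoter of Gnas held 40. Only 1.93% of the 32851 promoters in the RefSeq table held as many as the former, and 3.91% as many as the latter. The downstream Grb10 promoter held 9, the upstream Mest promoter 8 and the main Mest promoter 17, against a median of 7 over all promoters in the table. The letters TGCCGC, the core bound by the imprint-protecting protein ZFP57, were searched on both strands. They were found at 2 places in the main Mest promoter and at 1 place in the upstream Grb10 promoter, and in none of the other 6 sequences printed above. Of all promoters in the table, 11.6% held these letters. Among the 49 promoters found for 35 of the members, some of which overlap each other, 11 did (22.4%). Chromosome 18, where Impact lies, was left out of the member promoters but not of all promoters. The letters TGCCGC include a CpG, and the median CpG number was 13 over the member promoters, against 7 over all promoters. The part of CpG content in the higher share was not tested. The letters AANATGGCG, a core of the binding site of YY1, a factor known to bind within Peg3, occurred in none of the 8 windows shown and in 2 of the 49 member promoters, against 2.38% of all promoters. No binding or methylation was measured in these samples.

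Liver markers were high in both libraries. The 6 hepatoblast genes checked, which include Afp, Alb and Hnf4a, all reached 1 TPM in both libraries (TPM is the share of transcripts, corrected for length, scaled to a fixed total in each library) and summed to 13449 and 15184 TPM in replicates 1 and 2. The fetal liver is the main site of red cell formation at this stage, and the 7 erythroid genes checked, globins included, summed to 336789 and 299942 TPM. In a whole organ, fewer cells of a type and less RNA per cell cannot be told apart. Markers of neighbouring tissues were present at low levels and differed between the libraries. The 5 heart genes summed to 36.4 and 88.1 TPM in replicates 1 and 2, the 5 skeletal muscle genes to 60.5 and 48.2 TPM, and the 5 neuronal genes to 8.40 and 6.07 TPM.

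Imprinted genes ranged from undetected to among the more abundant RNAs of the liver. Of the 44, 33 (75%) reached 1 TPM in both libraries, 11 were below 1 TPM in both, and none lay on different sides of that level. Of all annotated genes, 28.1% reached 1 TPM in both libraries, and of annotated protein-coding genes 52.1% did. At least 100 TPM in both libraries was reached by 8 members (18.2%), against 2.61% of all annotated genes and 4.92% of protein-coding genes. These 8 were Dlk1, H19, Gnas, Meg3, Commd1, Mest, Grb10 and Cdkn1c. A further 13 members lay between 10 and 100 TPM in both libraries, and 12 reached 1 TPM but not 10 TPM in both. The median member level was 9.29 TPM (replicate 1) and 9.49 TPM (replicate 2), or 3.24 ± 0.02 (SD, n = 2) as log2(TPM + 0.1), against a median of 0.01 TPM over all annotated genes in each library. Among genes at 1 TPM or more in both libraries the medians were closer, at 15.6 and 17.2 TPM for the 33 members and 10.8 and 12.1 TPM for all 12183 such genes.

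Together the 44 genes held 2260 and 2387 TPM in replicates 1 and 2, which is 0.230% and 0.246% of the TPM of annotated genes. The 6 highest members in each library supplied 73.3% and 71.2% of that sum. Among the listed members, Dlk1-Dio3 was the leading cluster, with 30.4% ± 0.479 (SD, n = 2) of the summed member TPM. H19 supplied 14.9% ± 1.94, the Gnas locus 13.2% ± 0.00484, and the Mest locus 8.52% ± 0.993. H19 stood alone for its cluster, because its partner Igf2, at 339 and 328 TPM, was not among the 44. The order of clusters thus rests on the genes listed. The Zrsr1-Commd1 locus supplied 8.44%, the Kcnq1 cluster 6.01% and the Grb10 locus 5.70%. The Snrpn cluster followed with 2.31%, and the other 9 clusters or loci each supplied less. TPM is corrected for transcript length, and by expected counts, which are not, Dlk1-Dio3 still led with 22.9%, while Grb10 came next with 13.6%, Peg3 held 6.01% and Zrsr1-Commd1 2.14%. The order of clusters whose shares lay within their spread, such as Mest and Zrsr1, or Kcnq1 and Grb10, was not resolved by 2 libraries.

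**Figure D1:**
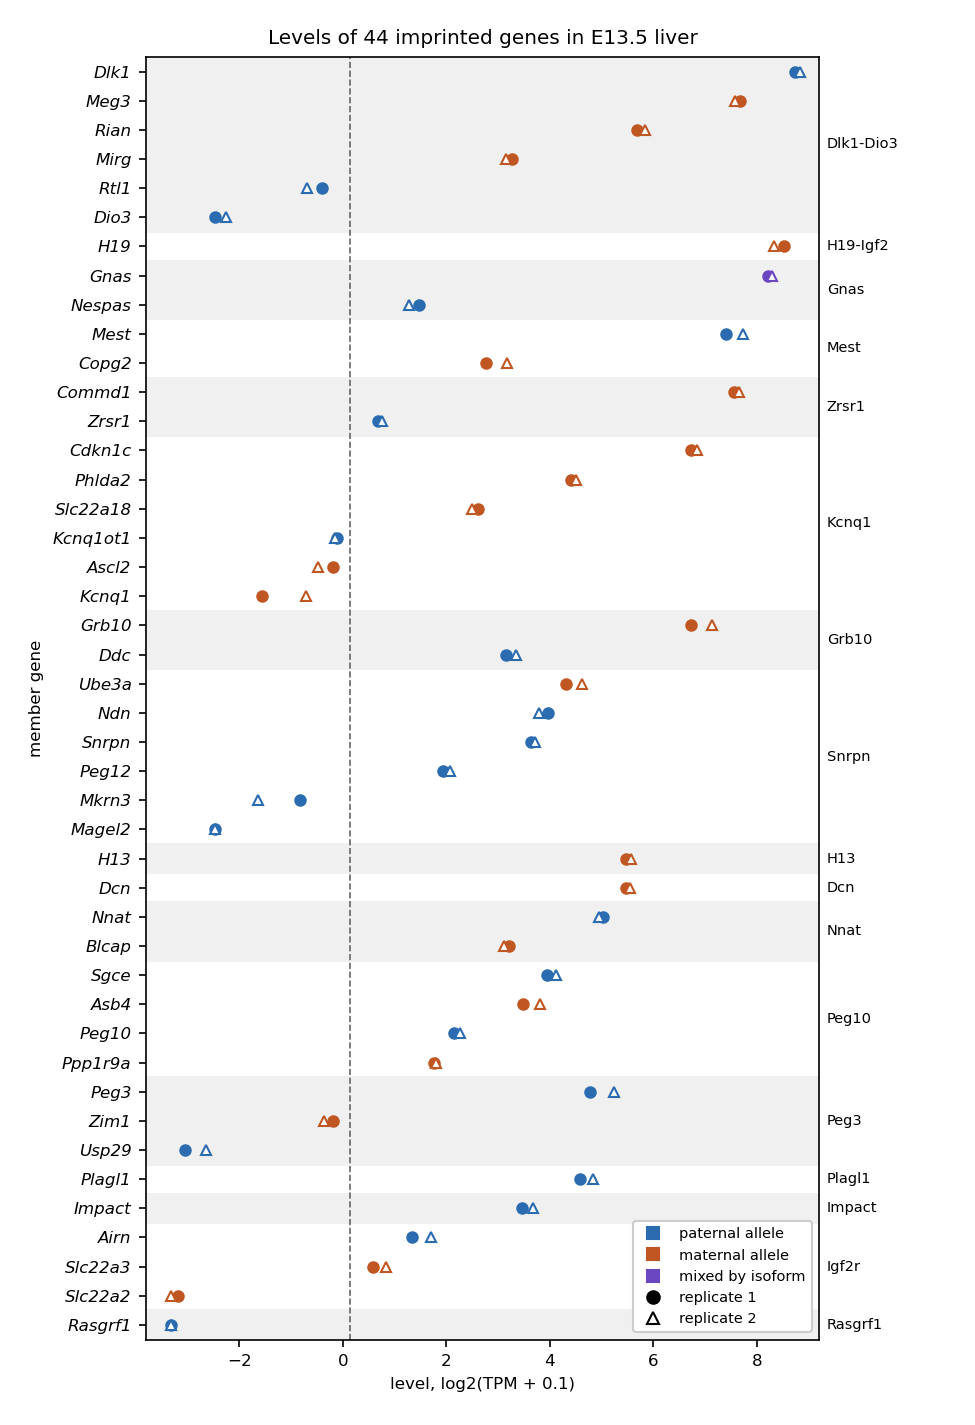
Level of each of the 44 imprinted genes, as log2(TPM + 0.1), in replicate 1 (filled circles) and replicate 2 (open triangles), grouped by cluster and coloured by the parental allele known to be expressed. The dashed line marks 1 TPM: 33 genes lie to its right in both libraries, 11 to its left in both, and Dlk1 is the highest.

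**Figure D2:**
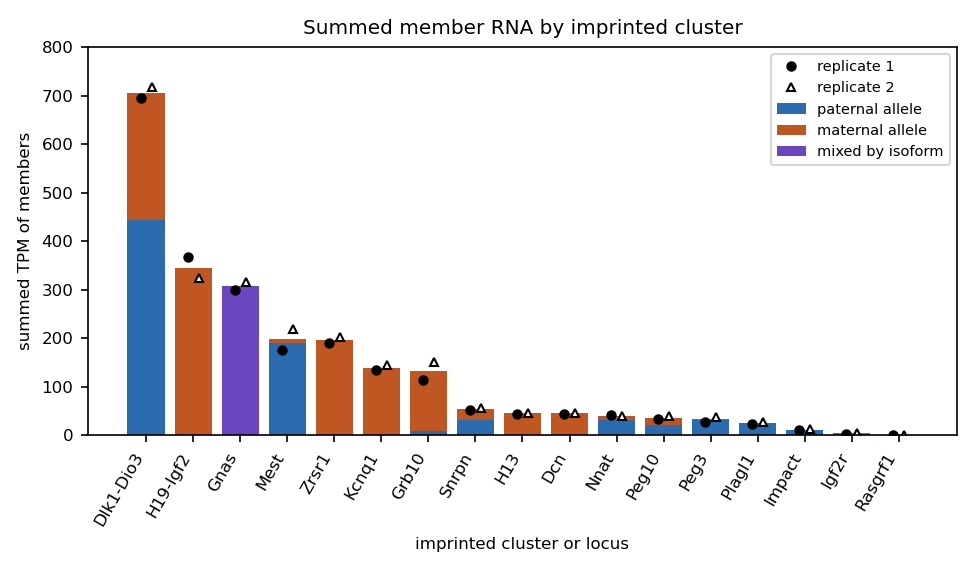
Summed TPM of the member genes in each of 17 clusters or loci, with bars for the mean of the 2 libraries, split by the parental allele known to be expressed, and points for each library. Dlk1-Dio3 holds 694 and 717 TPM, H19 368 and 323 TPM, and Rasgrf1 0 in both.

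The Dlk1-Dio3 cluster on chromosome 12 carries protein-coding genes that are expressed from the paternal copy and a chain of noncoding RNAs expressed from the maternal copy. Dlk1 (chr12:109452823-109463336, plus strand, GRCm38), a transmembrane protein of the Notch ligand family that marks hepatoblasts and other fetal progenitor cells, had levels of 429 TPM (replicate 1) and 459 TPM (replicate 2), rank 249 of all annotated genes by mean level. The other paternally expressed coding genes were nearly silent. Rtl1, a protein derived from a retrotransposon that is needed in placenta and muscle, stood at 0.66 and 0.52 TPM (157 and 111 expected counts). Dio3, the enzyme that inactivates thyroid hormone, stood at 0.08 and 0.11 TPM on 4 and 7 counts.

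On the maternal side, levels were lower at each noncoding RNA further along the chromosome. Meg3 (chr12:109541001-109571726), the noncoding RNA at the head of the chain, stood at 204 and 192 TPM. Rian, host of small nucleolar RNAs, stood at 50.9 and 57.2 TPM, and Mirg, host of many miRNAs, at 9.48 and 8.83 TPM. The order of these 3 RNAs was the same in both libraries. Meg3 was assigned mainly to a transcript of 1498 nt, Meg3-205, with 77.4% ± 0.264 (SD, n = 2) of its TPM. Paternal coding genes made up 61.9% of the cluster's TPM in replicate 1 and 64.1% in replicate 2, nearly all of it Dlk1.

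Between the start of Meg3 and the end of Mirg, RefSeq places 54 miRNA hairpins on the Meg3 strand, whose mature miRNAs have 97 distinct seeds (bases 2 to 8, which pair with target RNAs). Of those hairpins, 6 lie inside Rtl1 on the opposite strand, where they are complementary to its message. RNAs of this size were not selected in these libraries, so the host RNAs were measured and the miRNAs were not. The examples below, with their seeds in capitals, show 2 of the miRNAs that face Rtl1, a pair that shares a seed (miR-379-3p and miR-411-3p), and the miRNAs carried by H19 and Mest.
mmu-miR-127-3p: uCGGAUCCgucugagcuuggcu
mmu-miR-136-5p: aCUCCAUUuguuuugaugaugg
mmu-miR-379-3p: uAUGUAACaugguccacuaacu
mmu-miR-411-3p: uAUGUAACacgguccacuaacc
mmu-miR-675-5p: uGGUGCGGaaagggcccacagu
mmu-miR-335-5p: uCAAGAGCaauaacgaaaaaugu

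H19 (chr7:142575529-142578143, minus strand), a maternally expressed noncoding RNA that restrains growth and is processed to miR-675, reached 368 TPM in replicate 1 and was lower, 323 TPM, in replicate 2. Its partner Igf2, the fetal growth factor expressed from the paternal copy and not among the 44, stood at 339 and 328 TPM. Which gene of this pair was higher differed between the libraries, with an Igf2 to H19 ratio of 0.921 in replicate 1 and 1.02 in replicate 2. By expected counts H19 was higher in both, with log2 ratios of Igf2 to H19 of -0.42 and -0.34. H19 RNA was split among 3 annotated transcripts of 817, 1853 and 2286 nt at 35.7%, 29.8% and 34.4% of its TPM, and the transcript in front was not the same in both libraries.

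In the Kcnq1 cluster on chromosome 7, growth-limiting genes expressed from the maternal copy led. Cdkn1c (chr7:143458339-143461050), an inhibitor of cyclin-dependent kinases, stood at 106 and 114 TPM. Phlda2, a negative regulator of placental growth, stood at 21.03 and 22.7 TPM, and Slc22a18, a membrane transporter, at 6.04 and 5.57 TPM. Ascl2, a transcription factor of the placenta, was below 1 TPM at 0.77 and 0.62 TPM.

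Kcnq1ot1, the paternal noncoding RNA that silences this cluster, had 2617 and 2297 expected counts, but over an annotated length of 84395 nt these came to only 0.82 and 0.80 TPM. Per unit length, Cdkn1c was thus 129-fold and 143-fold higher than Kcnq1ot1 in replicates 1 and 2. Kcnq1, a potassium channel subunit of the heart and inner ear whose exons overlap Kcnq1ot1 on the opposite strand, had 26.2 and 36.0 counts. Its level was 0.24 TPM in replicate 1 and 0.51 TPM in replicate 2, over assigned lengths of 3029 and 2167 nt. By counts scaled between the libraries, the ratio of replicate 2 to replicate 1 was 1.37. Its 95% interval for counting error, 0.813 to 2.39, includes 1, so no difference was resolved. The 5 heart marker genes summed to 36.4 and 88.1 TPM in replicates 1 and 2. The part of heart tissue in the Kcnq1 level was not tested.

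In the Peg3 cluster a single gene carried nearly all the RNA. Peg3 (chr7:6703892-6730431, minus strand), a zinc finger protein of the paternal copy with roles in growth and maternal behaviour, stood at 27.4 and 37.8 TPM. All of its TPM was assigned to transcripts that begin in the promoter printed above. A RefSeq start of Usp29, a deubiquitinase expressed from the same parental copy, lies in the same window on the opposite strand. The Usp29 transcript in the deposited tables, of 2610 nt, begins far from it, at position 6961160 of chromosome 7, so its 2 and 5 counts (0.02 and 0.06 TPM) do not measure RNA from the shared promoter. Zim1, a maternally expressed zinc finger gene, stood at 0.78 and 0.68 TPM. In the Peg10 cluster, Sgce, which encodes a sarcoglycan of the muscle membrane, and Peg10, a retrotransposon-derived gene needed for the placenta, start 99 nt apart and are both paternally expressed. Sgce stood at 15.3 and 17.2 TPM and Peg10 at 4.32 and 4.67 TPM, a ratio of 3.53 and 3.69. By expected counts, which are not corrected for length, they were closer, at 893 and 930 for Sgce and 619 and 684 for Peg10. A Peg10 transcript of 1477 nt held 41.4% and 36.8% of that gene's TPM. It had no M21 model, so its start was not placed. Of the maternally expressed genes beside them, Asb4, a component of ubiquitin ligases, stood at 11.1 and 13.8 TPM, and Ppp1r9a, a synaptic scaffold protein, at 3.27 and 3.38 TPM.

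Mest (chr6:30723547-30748465, plus strand), a paternally expressed member of the hydrolase fold family linked to growth of mesodermal tissue, reached 170 TPM in replicate 1 and, higher, 211 TPM in replicate 2. Its transcript Mest-211, of 2554 nt, held 95.7% ± 0.199 (SD, n = 2) of the gene's TPM. All transcripts that begin at the main start, in the promoter with 17 CpG dinucleotides printed above, summed to 98.3% ± 0.215. The 5 annotated transcripts from starts further upstream reached only 0.44% and 0.71% of the gene's TPM, or 8.94 and 17.7 counts. Copg2, a subunit of the coat of transport vesicles, ends inside Mest on the opposite strand and shares 912 nt with it. Copg2 stood at 6.74 and 8.85 TPM, so that Mest was 25.2-fold and 23.9-fold higher. No source used here says how reads in the shared stretch were divided between the genes.

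Grb10 (chr11:11930508-12038683, minus strand) encodes an adaptor protein that dampens insulin and insulin-like growth factor receptors. It is expressed from the maternal copy in most tissues and, from a separate promoter, from the paternal copy in neurons. Grb10 reached 106 TPM in replicate 1 and, higher, 140 TPM in replicate 2. The upstream start, in the promoter with 45 CpG dinucleotides, gave 92.3 and 127 TPM, or 88.5% ± 2.51 (SD, n = 2) of the gene's TPM, all in transcript Grb10-201 of 5061 nt. The 3 annotated transcripts from the downstream starts gave 13.4 and 13.2 TPM, or 12.6% and 9.43%. Their sum was alike in the libraries, but its 2 start groups moved in opposite ways. The downstream start whose promoter is printed above gave 8.03 and 9.33 TPM in replicates 1 and 2. The starts beyond it gave 5.4 and 3.9 TPM, on 71 and 46 counts. The upstream level was higher in replicate 2. By expected counts, which are not divided by length, the downstream transcripts held 7.88% and 6.64%. Whether the downstream transcripts came from neural cells was not tested. The 5 neuronal genes checked summed to 8.40 and 6.07 TPM. Ddc, the neighbouring decarboxylase of dopamine and serotonin synthesis, whose paternal expression is known from the embryonic heart, stood at 8.76 and 10.1 TPM.

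Gnas (chr2:174284320-174346744, plus strand) combines maternally, paternally and biallelically expressed transcripts in a single locus. Summed over its transcripts it reached 296 TPM (replicate 1) and 314 TPM (replicate 2). Transcripts that begin at the Gs alpha start, which encode the stimulatory G protein subunit that couples hormone receptors to cyclic AMP and are biallelic in most tissues, held 93.4% ± 0.0491 (SD, n = 2) of the gene's TPM, 277 and 293 TPM. The paternal exon 1A start gave 11.7 and 13.5 TPM (3.96% and 4.30%). The maternal Nesp start, source of the neurosecretory protein NESP55, gave 5 and 4.56 TPM (1.69% and 1.45%), and the paternal XLas start 0.88 and 0.81 TPM. The transcripts with a strict imprint were thus a small part of Gnas RNA in this tissue. Among the 3 leading Gs alpha transcripts, the form with the 45-nt exon, known as the long form, held 57.5% in replicate 1 and 52.9% in replicate 2.

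Nespas, the paternal antisense RNA of this locus, stood at 2.68 and 2.34 TPM. Its exons overlap those of Gnas on the opposite strand. A predicted gene, Gm20721, covers most Gs alpha exons on the opposite strand and was listed at 53.4 and 44.6 TPM. No source used here says whether the authors' counting used strand, and without it these reads cannot be told from Gnas reads. With Gm20721 added, Gnas came to 350 and 358 TPM, of which Gm20721 was 15.3% and 12.5%.

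**Figure D3:**
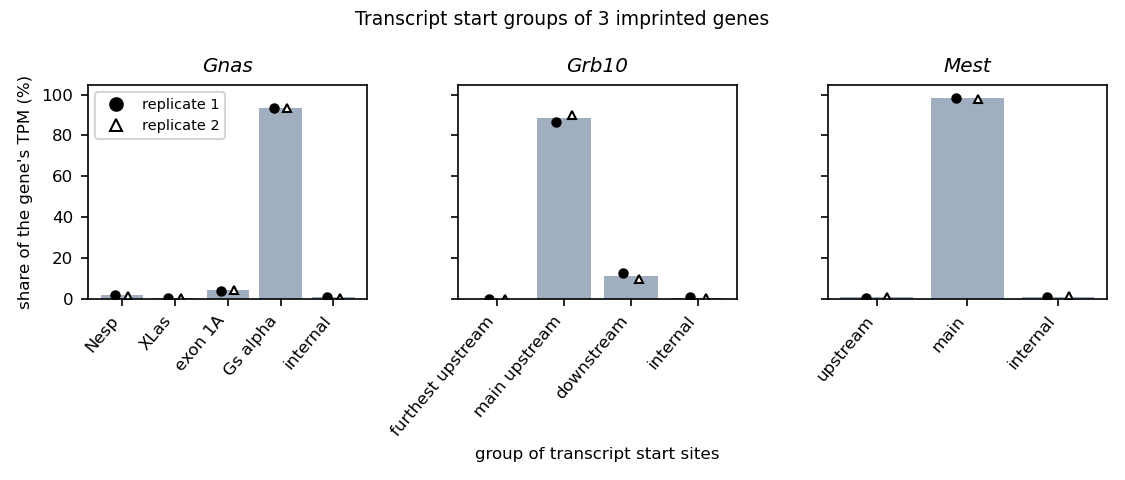
Share of the gene's TPM from each group of annotated transcript start sites of Gnas, Grb10 and Mest, with bars for the mean of 2 libraries and points for each library. A single start group leads each gene: Gs alpha at 93.4%, the main upstream start of Grb10 at 88.5% and the main start of Mest at 98.3%.

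Among the remaining loci, genes of the Snrpn cluster on chromosome 7, the counterpart of the human Prader-Willi and Angelman region, were at middle to low levels. Ube3a, a ubiquitin ligase whose imprint is known from neurons, stood at 19.8 and 24.5 TPM, and its exons overlap the antisense RNA Snhg14, listed at 2.38 and 2.93 TPM. Of the paternally expressed genes, Ndn, a growth suppressor of the MAGE family, stood at 15.6 and 13.7 TPM, Snrpn, a component of the splicing machinery, at 12.4 and 13.0 TPM, and Peg12 at 3.71 and 4.11 TPM. Magel2, also of the MAGE family, was at 0.08 TPM in both libraries (14 and 12 counts). Mkrn3, a ring finger protein that restrains puberty, was at 0.46 and 0.22 TPM. Snrpn shares its transcript with Snurf, which was listed at 5.97 and 8.75 TPM, so the division between them is uncertain.

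Plagl1, a zinc finger transcription factor that regulates other imprinted genes, stood at 23.9 and 28.4 TPM. Nnat, a paternally expressed membrane proteolipid of brain and endocrine tissue, stood at 32.3 and 30.9 TPM, above its host gene Blcap at 9.09 and 8.54 TPM. The reverse held for the Zrsr1 locus. There the host Commd1, a protein of copper and endosomal traffic, stood at 188 and 201 TPM, and Zrsr1, a paternally expressed splicing factor relative, at 1.49 and 1.59 TPM. Commd1 exons overlap Zrsr1 on the opposite strand. H13, a signal peptide peptidase, stood at 44.02 and 47.3 TPM, and Impact, a regulator of translation, at 10.9 and 12.6 TPM. Dcn, a proteoglycan of connective tissue whose imprint is known from placenta, stood at 44.2 and 46.8 TPM, beside 289 and 306 TPM for 7 mesenchymal genes summed.

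The genes around Igf2r were low. Airn, the paternal noncoding RNA that silences Igf2r in cis, had 70 and 92 counts, which came to 2.42 and 3.16 TPM over transcript models of about 864 and 956 nt. Those models cover 0.727% and 0.805% of the 118826 nt that Airn spans, so these values do not cover the rest of the span. Slc22a3, an organic cation transporter, stood at 1.40 and 1.68 TPM, and its exons overlap the plasminogen gene Plg on the opposite strand, listed at 121 and 167 TPM. Slc22a2, a transporter of the kidney, had 1 count in replicate 1 and none in replicate 2, where 3 counts would have been 0.0438 TPM. Rasgrf1, an exchange factor of neurons, was the only member without a count in either library, which allows up to 0.0256 and 0.0286 TPM. The growth factor receptor Igf2r, not among the 44, stood at 12.4 and 15.5 TPM.

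Read by the parental allele listed for each gene, maternally expressed members had the higher median level. Their median was 11.1 and 13.8 TPM in replicates 1 and 2 (21 genes), against 4.02 and 4.39 TPM for the 22 paternally expressed members. The paternal minus maternal difference of the medians was -1.54 ± 0.14 (SD, n = 2) as log2(TPM + 0.1). Maternally expressed members held 53.2% and 51.2% of the summed TPM, paternally expressed members 33.7% and 35.7%, and Gnas, counted apart, 13.1% in each. These sums, 762 and 851 TPM for paternally and 1202 and 1222 TPM for maternally expressed members, depend on the list. They leave out, among other imprinted genes, the paternally expressed Igf2, at 339 and 328 TPM. They include Commd1, at 188 and 201 TPM, whose maternal expression is known only in certain tissues, stages or transcripts. With Igf2 added and Commd1 left out, the paternal sum would be the higher in both libraries. At least 1 TPM in both libraries was reached by 17 of 21 maternal and 15 of 22 paternal members, and at least 100 TPM by 5 and 2. The size of the difference depended on the genes counted. It was -3.01 for the 20 paternal and 10 maternal members whose imprint is not limited to certain tissues, stages or transcripts, and -0.78 for the 19 and 20 members with at least 10 counts in each library. Genes are not replicates, and no test was made of this difference.

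Within clusters there was no common direction between neighbours listed under opposite alleles. For the maternal partners Copg2, Ube3a, Commd1, Blcap and Slc22a3 the imprint is known only in certain tissues, stages or transcripts. Whether those pairs had opposite alleles in these livers was not measured. In 10 such pairs, the paternally expressed gene was higher in both libraries in 5 (Dlk1 over Meg3, Peg3 over Zim1, Mest over Copg2, Nnat over Blcap and Airn over Slc22a3). It was lower in both in 4 (Kcnq1ot1 under Cdkn1c, Zrsr1 under Commd1, Peg10 under Asb4 and Snrpn under Ube3a), and Igf2 and H19 lay on either side of equality. The log2 ratio ran from -6.92 ± 0.10 (SD, n = 2) for Kcnq1ot1 over Cdkn1c to 5.28 ± 0.45 for Peg3 over Zim1, and Dlk1 over Meg3 was 1.16 ± 0.13. Airn over Slc22a3 was 0.81 ± 0.09 per length but -1.22 by expected counts. The ends of the range also moved by expected counts. Kcnq1ot1 over Cdkn1c was then -1.54, Zrsr1 over Commd1 was the lowest at -4.18, and Peg3 over Zim1 was 6.76.

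**Figure D4:**
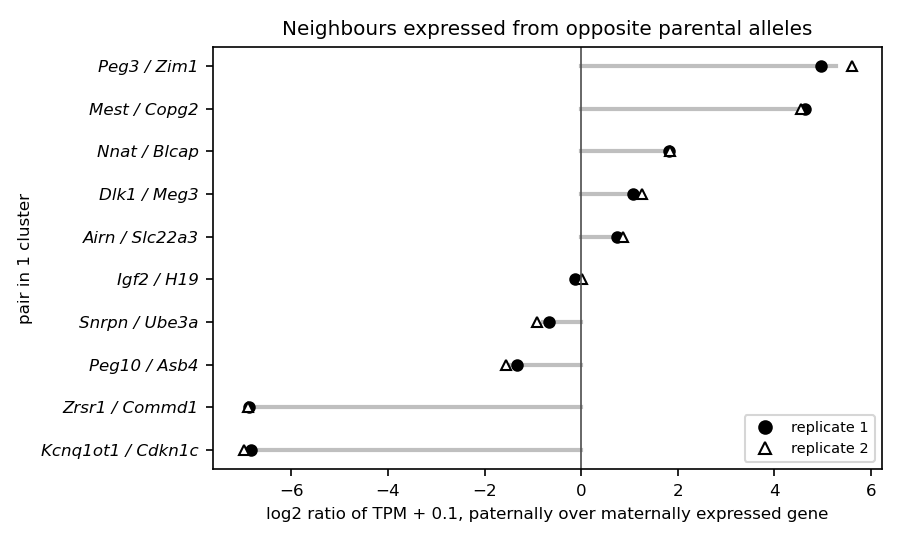
Log2 ratio of TPM + 0.1 between the paternally and the maternally expressed gene of 10 pairs, each pair within a cluster, for replicate 1 (filled circles) and replicate 2 (open triangles), with grey lines from 0 to the mean. Ratios run from -6.92 to 5.28, and only Igf2 over H19 changes sign between libraries. The imprint of Copg2, Ube3a, Commd1, Blcap and Slc22a3 is known only in certain tissues, stages or transcripts.

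The 2 libraries were then compared gene by gene, to show how closely the members' levels repeat. Expected counts were scaled by TMM, and the 40 members with a mean count of at least 10 were used. Their median log2 ratio of replicate 2 to replicate 1 was -0.05, against -0.00033 for all 15997 such genes, with 14 members higher and 26 lower in replicate 2 (50.2% of all such genes were lower). By TPM the tally was turned round, with 26 members higher and 13 lower in replicate 2, and 72.2% of all such genes were higher by TPM. A single member, Mkrn3 (43 and 18 counts), differed by more than 2-fold, against 2.76% of all genes. Among the 34 members whose counts reached 100 in each library, only Rtl1 lay outside the central 95% of all 11467 such genes, -0.39 to 0.38, with a log2 ratio of -0.50. These ratios describe a pair of libraries, and no conditions were compared.

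For 18 of the 40 members the 95% exact binomial interval of the ratio, which covers counting error only, did not include 1, against 38.8% of all 15997 genes by the same interval. It lay above 1 for 7 members (20.4% of all genes). Grb10 was 1.22-fold higher in replicate 2 (interval 1.19 to 1.24), Peg3 1.15-fold (1.11 to 1.18), and Mest, Copg2, Asb4, Ube3a and Plagl1 were also higher. It lay below 1 for 11 members (18.4% of all genes), with ratios of 0.813 for H19 (0.797 to 0.830), 0.833 for Meg3 (0.812 to 0.855) and 0.786 for Ndn (0.712 to 0.868). Of the 7 noncoding members 6 were lower in replicate 2 and Airn was higher, with a median log2 ratio of -0.24. Of all 851 genes of the same noncoding classes, 63.1% were lower. Rian was at -0.01 with an interval of the ratio that includes 1, and by TPM 5 of the 7 were lower. Between these libraries, the 7 erythroid genes had a median log2 ratio of -0.28, the 5 neuronal genes -0.48, the 5 skeletal muscle genes -0.41, the 5 endothelial genes 0.23 and the 5 heart genes 1.98. The part of these tissues in the members' ratios was not tested. Scaled to the spike-in RNAs instead, genes were lower in replicate 2 in the median, with a median log2 ratio of -0.64 over the 15997 genes and -0.69 over the 40 members, none of which was then higher in replicate 2.

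**Figure D5:**
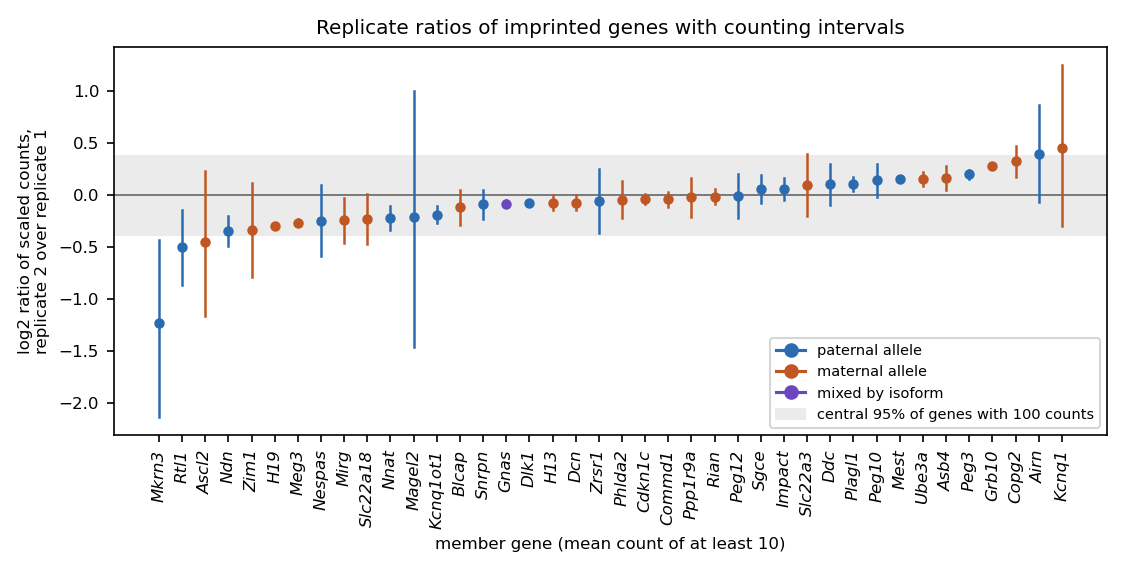
Log2 ratio of TMM-scaled expected counts, replicate 2 over replicate 1, for the 40 members with a mean count of at least 10, with 95% exact binomial intervals for counting error. The grey band is the central 95% of all genes that reached 100 counts in each library, -0.39 to 0.38, and Mkrn3 lies lowest at -1.23.

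Members differed in how far their RNA was assigned to a single transcript. Of the 33 members at 1 TPM or more in both libraries, 26 had more than 1 annotated transcript. The same transcript led in both libraries in 23 of these 26, and in 10 it held over 80% of the gene's TPM. Dlk1-205, of 1703 nt, held 55.7% ± 2.85 (SD, n = 2) of Dlk1, and Cdkn1c-201 held 81.5% ± 1.05 of Cdkn1c. In Commd1 the leading transcript held 40.2%, and in Ddc a noncoding transcript of 964 nt, Ddc-206, held 56.9% ± 0.438 of the TPM, ahead of the coding transcript Ddc-210. By expected counts Ddc-210 led instead, with 54.2% against 39.3%, and the leader was the same by counts and by TPM in 21 of the 26 genes.

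A wider list held 36 other imprinted genes, of which 33 were matched by symbol. Of these 33, 21 reached 1 TPM in both libraries and 12 were below it in both. Of all annotated genes 28.1% reached that level in both libraries, and of protein-coding genes 52.1%. The wider list was not sorted by the tissues in which each imprint is known. Whether its genes were imprinted in these livers was not measured. The 5 highest were Igf2, Cd81, a tetraspanin of the Kcnq1 region, at 117 and 117 TPM, Tspan32, another tetraspanin there, at 89.5 and 79.8 TPM, the histone chaperone Nap1l4 at 79.5 and 89.7 TPM, and Pon2, an esterase near Peg10, at 47.0 and 51.9 TPM. Other neighbours of the Kcnq1 and H19 clusters included Tssc4 at 43.2 and 40.2 TPM, the sterol reductase Dhcr7 at 33.5 and 46.04 TPM and the lipid transfer protein Osbpl5 at 2.16 and 2.56 TPM, while Ins2, Th and Tnfrsf23 were below 1 TPM. Near Peg10, the protease inhibitor Tfpi2 stood at 14.3 and 20.02 TPM and the esterase Pon3 at 14.1 and 15.8 TPM, and the calcitonin receptor Calcr was at 0.01 and 0.02 TPM. Mcts2, a retrogene inside H13, stood at 21.2 and 20.99 TPM, and Cobl, beside Grb10, at 1.21 and 1.51 TPM. Klf14 near Mest, Begain near Dlk1 and Atp10a near Ube3a were below 1 TPM in both libraries, as were Nap1l5, Kcnk9, Sfmbt2, Zdbf2 and Htr2a.

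Of 16 genes listed as setting or maintaining imprints, 13 reached 1 TPM in both libraries. The shares at that level were 28.1% over all annotated genes and 52.1% over protein-coding genes. Uhrf1, which brings the maintenance methyltransferase to replicated DNA, stood at 109 and 117 TPM. Trim28, the corepressor recruited by ZFP57, stood at 93.5 and 83.4 TPM, and Zfp57 was lower, at 4.14 TPM in each library. The insulator protein Ctcf stood at 68.6 and 62.1 TPM. Dnmt1, the maintenance methyltransferase itself, stood at 47.5 and 57.8 TPM, and Eed, a Polycomb subunit, at 27.2 and 32.9 TPM. The 3 genes below 1 TPM in both libraries, Dnmt3l, Ctcfl and Dppa3, act mainly in germ cells and the early embryo.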

How the data were processed

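Gene and transcript tables were deposited for each of 2 libraries. Per the readme deposited with them, they use mm10 with GENCODE M4. No source used here names the aligner, quantification tool or strand setting. The authors' deposited values used were expected counts and TPM, with posterior mean TPM and isoform percent beside them. Symbols, coordinates and transcript starts came from GENCODE M21 (GRCm38, the same build as mm10); 4 of 258 member transcripts had no M21 model. Starts within 1000 nt were grouped. A pseudocount of 0.1 TPM was used for log2 levels and 0.5 for counts. Replicate ratios used expected counts, rounded for the scaling factors and intervals, with TMM factors (edgeR 4.0.16, R 4.3.3); DESeq2 1.42.0 size factors and spike-in totals were alternatives. The scaling and ratio step was tested on simulated data. Intervals are exact binomial at 95%. The members and lists were chosen with earlier results of these data known. Named genes were all 44 members and the 5 highest other imprinted genes with neighbours of members. Of the genes listed as setting or maintaining imprints, the 5 highest, the lowest and Zfp57 were named. With 1 group, no p-value was computed.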

Additional observations from a re-analysis of the deposited data

How the results depend on the processing

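The count of members at 1 TPM or more, the count of pairs with the paternally expressed gene higher, and the leading transcript share of Gnas stayed within their spread or within 1.5-fold under every alternative tried. The median level of members, 3.24 as log2(TPM + 0.1), was 3.37 with a pseudocount of 1, 3.58 for members with at least 10 counts in each library, 3.29 from posterior mean TPM, 3.85 from TPM computed without globins, and 3.15 for members free of opposite-strand exons, an alternative chosen after seeing the data. The paternal minus maternal difference, -1.54, kept its sign but was -1.37 with a pseudocount of 1, -0.78 with at least 10 counts, -3.01 for members with a broad imprint, -1.01 without opposite-strand overlaps and -0.59 from summed TPM, the last 2 chosen after seeing the data. By expected counts the Dlk1-Dio3 share was 22.9% and the Grb10 share 13.6%, Igf2 over H19 was -0.38, and the leading transcript shares were 92.6% for Grb10 and 98.8% for Mest (94.7% from posterior means). The median replicate ratio of members was -0.69 by spike-in totals and 0.10 from TPM, and 3 members lay beyond 2-fold by spike-in totals or without the filter on counts. Airn over Slc22a3 reversed to -1.22 by expected counts. Leaving out each replicate, Igf2 over H19 ran from -0.12 to 0.022. The cause of these moves was not tested. No paired analysis was possible because there was a single group of 2 libraries, and genes with few counts, such as Usp29, Dio3, Magel2 and Slc22a2, are limited by depth.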
